A study of Mus musculus with 48 samples.

Results

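Nrde2Δ200 mouse embryonic stem (ES) cells, whose NRDE2 lacks its amino-terminal 200 residues, were compared with wild-type (WT) cells by RNA-seq in duplicate, to ask which transcripts depend on this part of the protein. The genes described are the 14144 autosomal genes that averaged 0.5 CPM or more (the reads of a gene scaled to a common library total) over the 2 Nrde2Δ200 and the 2 WT libraries, out of 55335 genes in the table of the series. All cells were of a hybrid 129-C57BL/6 background and grew in medium with serum, LIF and 2i. The Nrde2Δ200 line was made with Cas9 from a line whose Nrde2 was floxed and carried a FLAG-AviTag at its amino terminus, and is a single clone that also carries a tamoxifen-inducible Cre and the biotin ligase BirA. The WT libraries are labelled as wt cells of the conditional Nrde2 knockout with no treatment named, and whether their Nrde2 carried the tag was not stated. The same WT libraries served the first Nrde2 knockout (Nrde2-KO) and Nrde2-D174R, which carries a point mutation in the deleted part. A second Nrde2-KO experiment has WT libraries of its own. In both knockouts floxed Nrde2 was removed by Cre after 4-hydroxytamoxifen was added daily over several days, whereas Nrde2Δ200 is a clone that grew with its edit. The labels do not say whether the 2 libraries of a group come from separate cultures. The p-values therefore rest on the spread between libraries of a group, pooled over all groups of the 20 libraries without cycloheximide. The genotype cannot be told apart from other differences between the Nrde2Δ200 clone and the WT line.

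NRDE2 is a nuclear protein that binds MTREX, the helicase that delivers RNA to the nuclear exosome. It was linked in this study to the U1 small nuclear ribonucleoprotein (snRNP), which starts splicing by pairing with the 5′ splice site (5′SS) at the exon-intron border. A 5′SS that pairs poorly with U1 is called weak, and the study addressed the splicing of such sites. A failure to splice commonly lowers the mature transcript, because retained introns or shifted splice sites bring in premature stop codons.

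The edit is shown first, because it decides what a count of Nrde2 reads means. Nrde2 lies on the minus strand at chr12:100125452-100159653 (GRCm38, the assembly also called mm10) and its main transcript has 14 exons and encodes 1172 residues. Both Cas9 guides were found once in the gene, each written 5′ to 3′ with the next 3 genomic bases, where a PAM would lie, in capitals. The donor sequence resumes in exon 5, and its first 30 bases of Nrde2 are shown.
Upstream guide, exon 1, chr12:100159581-100159600, plus strand: gcaaaagccgggaacagcgcCAT
Downstream guide, exon 5, chr12:100144164-100144183, minus strand: gaggaagggagactcctgccTGG
Donor from codon 201, exon 5, chr12:100144141-100144170, minus strand: tcctgcctgggtatcaatcctaagaaacag
The 3 bases after the upstream guide are the start codon read from the other strand and not a Cas9 PAM. The guide was used on the tagged allele, in which the tag follows the start codon. The stretch from the start codon to the base before codon 201 is chr12:100144171-100159603, or 15433 bases with 4 introns. It holds 600 of the 4196 exonic bases of the gene (14.3%), and no read of an edited allele can come from it.

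The 4 libraries held between 28878024 and 33814363 reads in genes, which was 87.9 and 89.1% of the authors' total in WT and 86.2 and 86.5% in Nrde2Δ200. The log2 values of the 2 WT libraries correlated across genes with r = 0.995, those of the 2 Nrde2Δ200 libraries with r = 0.996, and those of libraries of different groups with r between 0.983 and 0.987. No library stood apart from its duplicate. All 8 ES cell markers were present, with a sum between 5010 and 5620 normalised CPM per library, and none was called. Of 9 fibroblast and feeder markers, Postn and Lum had no read in any library, and the sum was between 1.84 and 3.38 normalised CPM. Off the autosomes, 3 of 502 genes of the X chromosome were called up and 19 down, and 6 of 7 genes of the Y chromosome were called down.

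Nrde2 itself had 40.2 and 38.8 normalised CPM in WT and 50.1 and 51.9 in Nrde2Δ200. Both values were higher in Nrde2Δ200 although the allele has lost 14.3% of the exonic bases, and the log2 fold change was 0.37 ± 0.10 (SE) with an adjusted p of 0.0132 (limma, 2 libraries per group, as in all comparisons below). It did not pass the threshold of the study, an adjusted p below 0.01 with a fold change of more than 2. In the knockout with its own WT the log2 fold change of Nrde2 was −1.41, and the effects of the 2 edits differed (adjusted p = 6.97e-07).

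The introns that the study used as examples of NRDE2-bound weak 5′SSs lie in Cdk2, a kinase of the cell cycle, Tti1, a cochaperone of the kinases related to PI3K, and Dnmt1, the maintenance DNA methyltransferase. Their sites are shown with the last 3 bases of the exon and the first 6 of the intron, and capitals mark bases that differ from the most frequent base at that position over 138521 annotated sites.
Most frequent bases: caggtaagt
Cdk2 intron 1, chr10:128704004-128704711, minus strand: caCgtGagt
Tti1 intron 5, chr2:157993056-157993353, minus strand: TGggtaGgt
Dnmt1 intron 10, chr9:20930166-20932114, minus strand: AaggCaaAG
A score summed log2 of the frequency of each base over 0.25. The site of Cdk2 scored 7.21, higher than 33.5% of all sites, and that of Tti1 scored 6.21, higher than 21.9%. The intron of Dnmt1 starts with GC in place of GT and was not scored. Introns were numbered on the main transcripts of the GENCODE M21 annotation. The study used M23 and did not name the transcripts it numbered, so the match of the introns was not checked.

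All 3 genes were lower in Nrde2Δ200. Cdk2 had 126 and 136 normalised CPM in WT and 90.1 and 84.8 in Nrde2Δ200, or −0.58 ± 0.10 (SE) as a log2 fold change (adjusted p = 8.65e-04). Tti1 had 84.8 and 74.6 in WT and 48.5 and 47.5 in Nrde2Δ200, a log2 fold change of −0.73 ± 0.10 (adjusted p = 9.68e-05). Dnmt1 had 448 and 463 in WT and 383 and 368 in Nrde2Δ200, a log2 fold change of −0.28 ± 0.09 (adjusted p = 0.0366). Cdk2 and Tti1 passed an adjusted p of 0.01, and none of the 3 genes reached a fold change of 2. The study chose these introns with these samples in hand, so their direction is not independent evidence. In the knockout with its own WT the log2 fold changes were −0.65 for Cdk2, −1.53 for Tti1 and −0.78 for Dnmt1. The fall of Tti1 was smaller in Nrde2Δ200 than in that knockout (difference 0.80 ± 0.14, adjusted p = 0.00269). The differences of 0.50 ± 0.12 for Dnmt1 (adjusted p = 0.0231) and 0.07 ± 0.14 for Cdk2 (adjusted p = 0.813) did not pass 0.01.

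Across the autosomes 373 of 14144 genes were called (2.64%), 241 up (1.7%) and 132 down (0.933%). At any fold change, 477 genes (3.37%) were higher and 579 genes (4.09%) lower in Nrde2Δ200 at an adjusted p below 0.01. Most of the increases were of weakly expressed genes: the genes called up had a median of 1.19 normalised CPM in WT and 3.85 in Nrde2Δ200, whereas those called down had 8.82 and 3.33, and all genes tested had a WT median of 17.4. Of the genes called up, 54 had a WT mean under 0.5 normalised CPM and entered through the Nrde2Δ200 libraries, and 14 of those called down had an Nrde2Δ200 mean under 0.5. Changes of more than 4-fold were few, 26 up and 12 down. In every called gene both Nrde2Δ200 values lay on the same side of both WT values. The 2 WT libraries of the second knockout experiment are not part of the fold changes, but they entered the scaling and the shared estimate of the spread. Both Nrde2Δ200 values lay beyond both of these WT values in the same direction in 237 of the genes called up (98.3%) and 126 of those called down (95.5%). The genes were called on these same Nrde2Δ200 values, which favours this outcome. The share of separate values over all genes was not counted, so the 98.3% and 95.5% have no background and are not a replication.

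**Figure D1:**
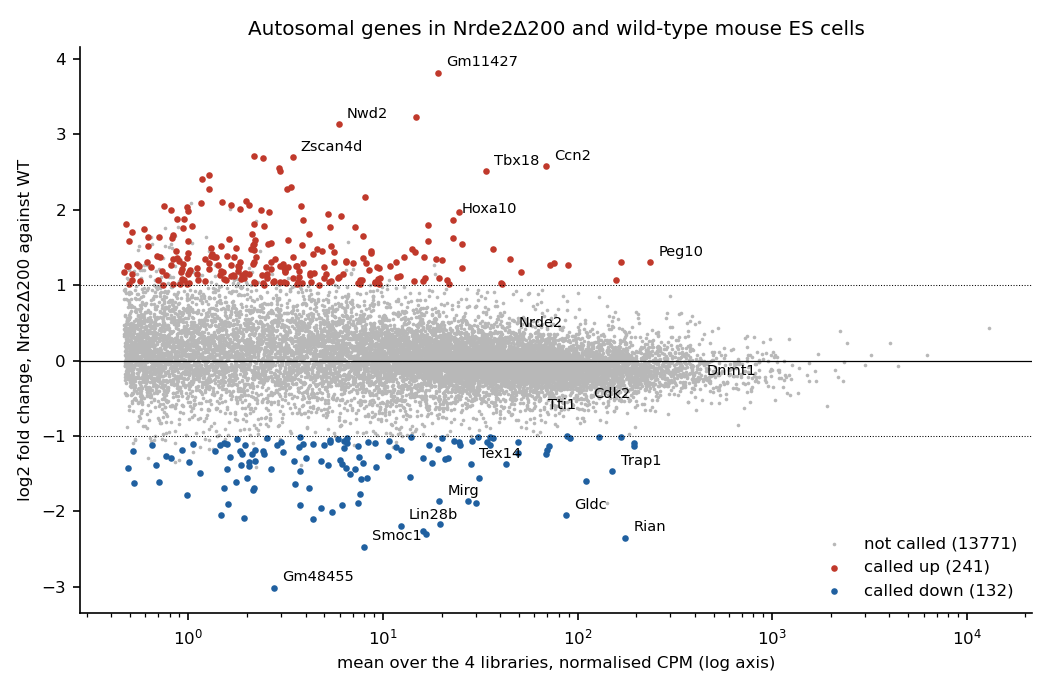
Log2 fold change of each autosomal gene in Nrde2Δ200 against WT (vertical axis), by its mean normalised CPM over the 4 libraries (horizontal, log axis); red and blue points are the 241 genes called up and the 132 called down, grey points all others, and dotted lines a 2-fold change. Red points lie mostly to the left, where levels are low, and Nrde2, Dnmt1, Cdk2 and Tti1 lie between the dotted lines.

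The number of calls depended on each library. It was 222 (128 up and 94 down) without WT replicate 1, 179 (99 up and 80 down) without WT replicate 2, 271 (160 up and 111 down) without Nrde2Δ200 replicate 1 and 123 (55 up and 68 down) without Nrde2Δ200 replicate 2. The remaining library of a group is then assumed to vary like the other groups of the fit. Of the 373 genes, 361 were also called in the same direction by edgeR and 351 by DESeq2 on the recovered reads, and none changed sign in any alternative fit.

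The protein-coding genes with the largest increases were a mixed group. Ccn2, a secreted matricellular protein, had 20.04 and 18.99 normalised CPM in WT and 107 and 129 in Nrde2Δ200, which is 2.58 ± 0.16 on the log2 scale (SE, adjusted p = 7.72e-09). Tbx18, a T-box transcription factor, had 9.46 and 10.2 in WT and 49.1 and 66.1 in Nrde2Δ200 (log2 fold change 2.51 ± 0.18, adjusted p = 4.89e-08). These 2 had the highest WT levels of this group and rose more than 5-fold. The WT median over all genes tested was 17.4 normalised CPM, so Tbx18 was below it in WT. Nwd2 had 0.791 and 1.22 normalised CPM in WT and 8.69 and 13 in Nrde2Δ200, the largest increase of this group at 3.14 ± 0.27 on the log2 scale. Its neighbour on chromosome 5, 0610040J01Rik, had 0.498 and 0.423 in WT and 3.72 and 5.01 in Nrde2Δ200. Lrrc4b, a synaptic adhesion protein, had 0.674 and 0.647 in WT and 3.99 and 6.43 in Nrde2Δ200. Tent5a, a noncanonical poly(A) polymerase, had 0.996 and 0.921 in WT and 5.07 and 6.41 in Nrde2Δ200. Tat, the tyrosine aminotransferase, had 0.234 and 0.149 in WT and 1.53 and 2.79 in Nrde2Δ200. In all of them the WT values were close to 1 CPM or below. Every Nrde2Δ200 value was above every WT value, as the choice of these genes required. Zscan4d, Gm8300 and Gm13119 complete the 10 genes. Zscan4d and Gm8300 are described with the genes of the 2-cell state, and Gm13119 went from 0.264 and 0.174 normalised CPM in WT to 2.14 and 2.51. Without Nrde2Δ200 replicate 2 the calls of Zscan4d, Tat and Gm13119 were lost (adjusted p = 0.0101, 0.0107 and 0.0163), and Gm13119 was also lost without WT replicate 2. Gm8300 was lost in each of the 4 fits that left out a library, at adjusted p up to 0.037.

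Among the genes that are not protein-coding, the largest increase was of Gm11427, a transcribed pseudogene on chromosome 11. It had 2.26 and 2.39 normalised CPM in WT and 38.5 and 33.6 in Nrde2Δ200, or 3.82 ± 0.24 (SE) as a log2 fold change (adjusted p = 1.31e-08). It overlaps the noncoding AI662270 on the same strand, so reads in the overlap cannot be assigned to either. AI662270 had 2.20 and 3.14 in WT and 28.9 and 24.6 in Nrde2Δ200. The long intergenic noncoding RNA 9830004L10Rik had 0.410 and 0.373 in WT and 3.67 and 4.29 in Nrde2Δ200. Among those that fell, the processed pseudogene Gm48455 had 5.16 and 5.002 in WT and 0.566 and 0.284 in Nrde2Δ200 (−3.01 ± 0.23, adjusted p = 1.99e-07). These 4 transcripts kept their call in every fit that left out a library.

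The protein-coding genes with the largest decreases included enzymes and regulators of known function. Gldc, the glycine decarboxylase of the glycine cleavage system, had 135 and 147 normalised CPM in WT and 36.2 and 31.4 in Nrde2Δ200, or −2.05 ± 0.12 (SE) as a log2 fold change (adjusted p = 5.84e-09). Selenoi, an ethanolamine phosphotransferase of phosphatidylethanolamine synthesis, had 26.1 and 29.3 in WT and 6.16 and 4.78 in Nrde2Δ200 (−2.30 ± 0.14, adjusted p = 6.09e-09). Lin28b, an RNA-binding protein that blocks let-7 maturation, had 19.22 and 21.3 in WT and 5.52 and 3.26 in Nrde2Δ200 (−2.19 ± 0.22, adjusted p = 5.22e-06). Smoc1, a secreted calcium-binding protein, had 13.6 and 13.8 in WT and 2.22 and 2.33 in Nrde2Δ200, the largest decrease of this group at −2.47 ± 0.14 on the log2 scale. These 4 genes fell by 4.15- to 5.54-fold. Slfn9, a member of the Schlafen family, had 25.1 and 27.7 normalised CPM in WT and 6.89 and 4.08 in Nrde2Δ200. Nphs1, which encodes nephrin, had 9.90 and 7.91 in WT and 2.02 and 1.99 in Nrde2Δ200. Odf2l had 7.47 and 8.04 in WT and 2.17 and 1.498 in Nrde2Δ200. Calb2, which encodes calretinin, and Obox6, a homeobox gene of oocytes, fell to under 2.3 normalised CPM in both Nrde2Δ200 libraries. Obox6 had 3.19 and 3.36 in WT and 0.443 and 0.749 in Nrde2Δ200. Without Nrde2Δ200 replicate 2 the call of Calb2 was lost (adjusted p = 0.0105), and the other genes described here kept theirs in every fit that left out a library.

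**Figure D2:**
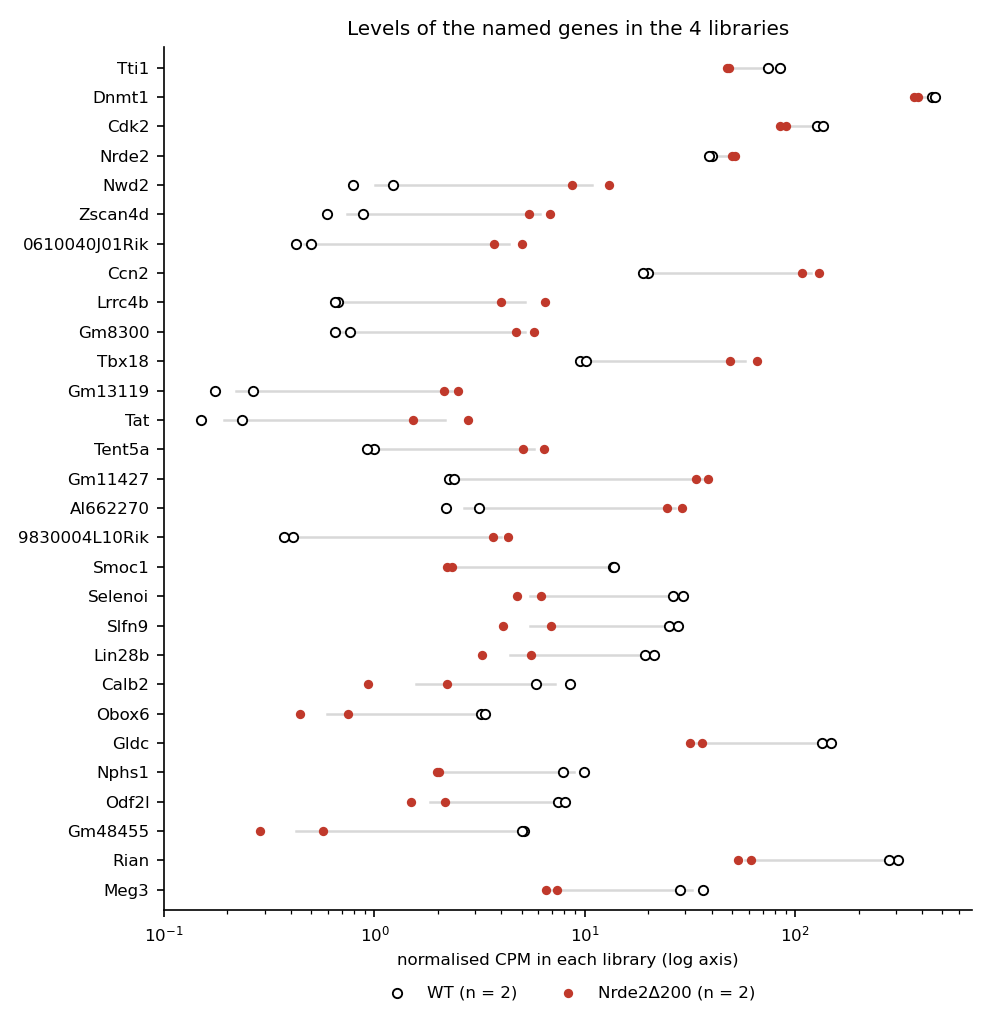
Normalised CPM (horizontal, log axis) of the example genes of the study, of Nrde2 and of the genes with the largest changes in the 2 WT libraries (open circles) and the 2 Nrde2Δ200 libraries (filled circles); grey lines join the group means. In every row the open and the filled circles are separate, which the choice of the genes with the largest changes required. The gap is widest for Gm11427.

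The weakest annotated 5′SS in the main transcript of the 5 protein-coding genes with the largest decreases is shown with the same marking of differing bases.
Smoc1 intron 4, chr12:81135876-81137964, plus strand: caggtaCCG
Selenoi intron 1, chr5:30232816-30247462, plus strand: AaggtaGAG
Slfn9 intron 2, chr11:82988309-82990941, minus strand: AaAgtaGgt
Lin28b intron 1, chr10:45469219-45470050, minus strand: AaggtTaAt
Calb2 intron 8, chr8:110147355-110147614, minus strand: caggtaCAA
These sites scored higher than 8.65% of all annotated sites in Smoc1, 15.5% in Selenoi, 32.0% in Slfn9, 12.1% in Lin28b and 9.90% in Calb2. Each is the weakest of its transcript, so a low rank among all sites follows from the choice. The scores were 4.78, 5.53, 7.15, 5.12 and 4.90 in the same order. All are above 4.65, the median of the weakest site over all protein-coding genes tested. For that median all GENCODE basic protein-coding transcripts of a gene were used, and only sites with GT were scored. The share of these sites in the changes was not tested. Over the 120 protein-coding genes called down, the median score of the weakest site was 4.33 with a median of 11 splice donors per gene. Over the 217 called up it was 5.02 with 8 donors, and over all 12400 tested 4.65 with 9 donors. A gene with more introns has more chances of a weak site. In the fifth of the genes with the weakest sites (median of 14 donors) 1.15% were called down and 1.23% up, and in the fifth whose weakest site was strongest (median of 4 donors) 0.869% were called down and 2.48% up. Genes without an intron made up 5.53% of those called up, 0.83% of those called down and 2.37% of all tested.

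Some called genes were neighbours. In 22 places at least 2 tested genes next to each other were called in the same direction, 16 places with 37 genes up and 6 places with 15 genes down. The longest run that fell was a block of noncoding transcripts of the imprinted Dlk1-Meg3 domain at chr12:109541001-109749460, all on the plus strand and expressed from the maternal chromosome. Rian, which hosts small nucleolar RNAs, had 309 and 279 normalised CPM in WT and 61.6 and 53.6 in Nrde2Δ200, or −2.35 ± 0.28 (SE) as a log2 fold change (adjusted p = 2.36e-05). Mirg, which hosts microRNAs, had 29.6 and 31.7 in WT and 8.47 and 8.03 in Nrde2Δ200 (−1.86 ± 0.20, adjusted p = 8.76e-06). Meg3 had 36.4 and 28.2 in WT and 7.39 and 6.54 in Nrde2Δ200 (−2.17 ± 0.49, adjusted p = 0.00631). All 5 transcripts of the run fell, including Gm37899 and B830012L14Rik with log2 fold changes of −1.43 and −1.56. The WT libraries of the second knockout experiment were lower over this run. Rian had 147 and 168 normalised CPM there, Meg3 21.8 and 21.9, Mirg 23.05 and 24.96, B830012L14Rik 5.73 and 7.04, and Gm37899 3.46 and 4.69. The Nrde2Δ200 values lay below these in all but Gm37899, which had 4.26 and 2.64 and overlapped them, and the differences were smaller than against the WT of the comparison. Dlk1, the protein-coding gene at the other side of Meg3 that is expressed from the paternal chromosome, had 0.586 and 0.249 in WT and 0.690 and 0.568 in Nrde2Δ200 and was not called. The call of Meg3, which has the largest SE of these, was lost in each fit that left out a library (adjusted p up to 0.0642). Rian and Mirg kept theirs, at adjusted p up to 0.00117 and 4.58e-04.

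The longest run that rose was in the Hoxa cluster at chr6:52214491-52249799, and held Hoxa7, Hoxa9, Hoxa10, Hoxa11 and the antisense RNA Hoxa11os. Hox genes encode the transcription factors that set position along the body axis. Hoxa10 had 10.3 and 8.96 normalised CPM in WT and 30.2 and 42.3 in Nrde2Δ200, or 1.87 ± 0.27 (SE) as a log2 fold change (adjusted p = 1.60e-04). Hoxa9 had 7.59 and 7.22 in WT and 22.2 and 31.1 in Nrde2Δ200, and Hoxa11 had 2.14 and 2.44 in WT and 8.03 and 8.86 in Nrde2Δ200. Over all 4 clusters, 29 Hox genes were tested, of which 8 were called up and none down, with a median log2 fold change of 0.77 beside −0.005 over all genes. Hoxd1, Hoxd12, Hoxd4 and Hoxa3 had WT means of 0.185, 0.330, 0.350 and 0.466 normalised CPM. They passed the filter of 0.5 CPM only through the Nrde2Δ200 libraries, so they had to be higher there. The counts and the median describe the Hox genes that passed. Hoxb9, Hoxd1, Hoxd11 and Hoxd12 were the called genes outside the Hoxa cluster. Hoxd11 had 1.14 and 0.572 in WT and 3.52 and 3.46 in Nrde2Δ200, and Hoxb9 had 2.26 and 1.49 in WT and 6.23 and 5.35 in Nrde2Δ200. Not all Hox genes were higher: Hoxc4 had a log2 fold change of −0.98 (adjusted p = 0.00484). The Hox genes and the Dlk1-Meg3 domain were singled out after their values were seen.

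The Hoxa cluster lies on chromosome 6, where the genes as a whole were higher in Nrde2Δ200. The median log2 fold change of its 705 genes was 0.17 (1.12-fold), and it was 0.167 and 0.173 in the 2 Nrde2Δ200 libraries. The medians of the other autosomes lay between −0.06 and 0.02. On chromosome 6, 71.6% of the genes were above 0, and 33 (4.68%) were called up and 3 (0.426%) down. On the other autosomes together 208 of 13439 genes (1.55%) were called up and 129 (0.96%) down. The shift was uneven along the chromosome: over windows of 10 Mb it was between 0.26 and 0.36 from 10 to 60 Mb, and −0.05 in the last window. Hoxa9, Hoxa10 and Hoxa11, at 52 Mb, lie in the window with the highest median. In the knockout with its own WT the median of chromosome 6 was −0.001 and its windows lay between −0.13 and 0.25, and in Nrde2-D174R against the shared WT it was −0.10. The copy number of chromosome 6 was not measured, and its part in the calls there was not tested.

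**Figure D3:**
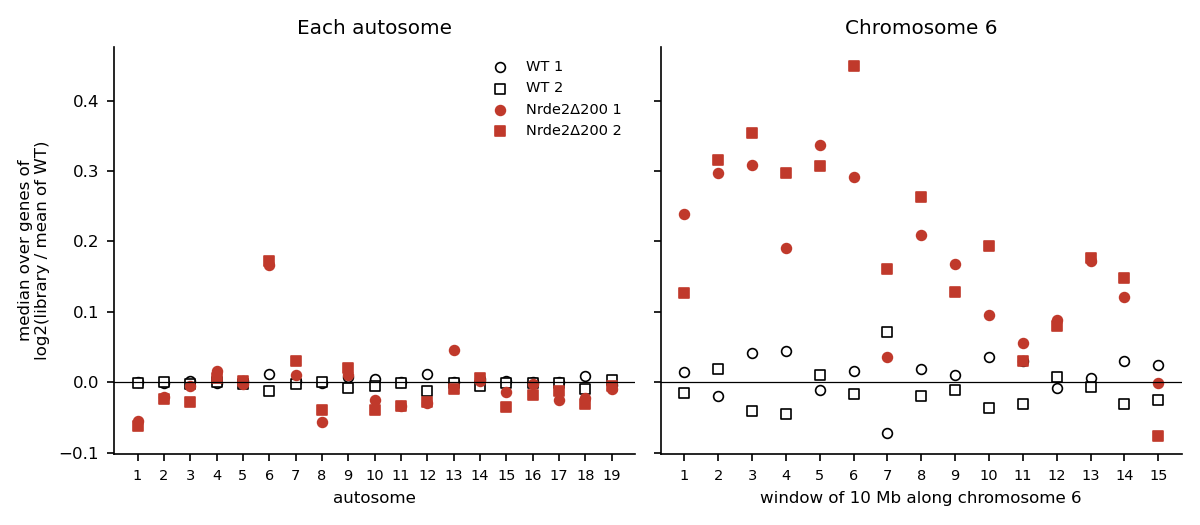
Median over genes of log2 of each library over the WT mean (vertical axis), for each autosome (left) and for windows of 10 Mb along chromosome 6 (right); open symbols are the 2 WT libraries, filled symbols the 2 Nrde2Δ200 libraries. Chromosome 6 is the only autosome at which both Nrde2Δ200 libraries exceed 0.1, at 0.167 and 0.173, and its windows 2, 3, 5 and 6 lie above 0.29 in both.

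Genes of the 2-cell state are transcribed at the first embryonic genome activation and in rare cells of ES cultures. Of the 44 genes of this list 17 passed the filter on low values, and 4 were called up and none down. Of these 17, 10 had a WT mean below 0.5 normalised CPM and passed only through the Nrde2Δ200 libraries, so they had to be higher there, and the counts and the median of 1.52 describe the genes that passed and not the list. Of the other 7, Zscan4d and Gm8300 were called, and Eif1a and Pramel7 were below 0. In the other lists at most 2 of the tested genes passed in this way. Zscan4d, which protects telomeres in that state, had 0.879 and 0.597 normalised CPM in WT and 5.44 and 6.79 in Nrde2Δ200 (2.69 ± 0.42, adjusted p = 3.58e-04). Gm8300 had 0.762 and 0.647 in WT and 4.70 and 5.71 in Nrde2Δ200, Gm20767 had 0.205 and 0.0747 in WT and 1.23 and 1.47 in Nrde2Δ200, and Tcstv3 had 0.0879 and 0.0498 in WT and 0.690 and 1.09 in Nrde2Δ200. All 4 were near or below 1 CPM in WT and higher in both Nrde2Δ200 libraries. They belong to families of near-identical copies, so uniquely mapping reads may be split among members. Tcstv3, Gm20767 and Gm8300 lost their call in at least 3 of the 4 fits that left out a library. In bulk RNA more cells in this state and more RNA per cell cannot be told apart. Of 29 chromatin repressors of the 2-cell-like state none was called, and the median was −0.12. L3mbtl2, a component of a Polycomb complex, had the smallest p, with 156 and 171 in WT and 125 and 120 in Nrde2Δ200 (adjusted p = 0.00478).

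Germline and imprinted genes moved in both directions. Of 38 germline genes, 3 were called up and 3 down, with a median of −0.05. Tex19.1 and Tex19.2, which lie side by side on chromosome 11 and act in transposon control, both rose. Tex19.1 had 37.2 and 49.9 normalised CPM in WT and 95.9 and 118 in Nrde2Δ200 (1.30 ± 0.20 on the log2 scale, adjusted p = 2.69e-04), and Tex19.2 had 0.615 and 0.971 in WT and 3.13 and 4.70 in Nrde2Δ200. Piwil4, of the piRNA pathway, had 0.205 and 0.174 in WT and 0.788 and 0.698 in Nrde2Δ200. Tex14, which maintains the intercellular bridges of germ cells, fell from 43.5 and 38.3 in WT to 16.7 and 14.5 in Nrde2Δ200 (−1.37 ± 0.11, adjusted p = 1.99e-07). Smc1b, a meiotic cohesin subunit, had 6.97 and 6.92 in WT and 2.56 and 2.66 in Nrde2Δ200, and Cpeb1, which controls translation in oocytes, had 2.75 and 2.07 in WT and 0.690 and 1.01 in Nrde2Δ200. Tex14 kept its call in all fits that left out a library. Piwil4, Smc1b and Cpeb1 lost theirs in each of them, Tex19.1 without Nrde2Δ200 replicate 2 (adjusted p = 0.0105) and Tex19.2 without it or without WT replicate 1.

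Of 50 imprinted genes 2 were called up and 4 down, with a median of 0.13, and 3 of those that fell are Rian, Meg3 and Mirg. The other was Atp10a, a phospholipid-transporting ATPase, with 2.93 and 3.29 normalised CPM in WT and 1.16 and 0.672 in Nrde2Δ200 (−1.56 ± 0.21, adjusted p = 1.11e-04). Peg10, a domesticated retrotransposon gene, had 137 and 133 in WT and 308 and 367 in Nrde2Δ200 (1.31 ± 0.28, adjusted p = 0.00386), and lies on chromosome 6. Zim1, a zinc-finger gene, had 0.674 and 0.473 in WT and 1.40 and 1.40 in Nrde2Δ200. The calls of Peg10 and Zim1 were lost in each fit that left out a library, at adjusted p up to 0.0595 and 0.0861. Of 14 host genes of small nucleolar RNAs, Rian was the only one called, and the median of that list was −0.15.

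Pluripotency genes changed little. Of 25 naive pluripotency genes 1 was called, Utf1, a chromatin factor of undifferentiated cells, with 10.2 and 17.0 normalised CPM in WT and 4.75 and 4.83 in Nrde2Δ200 (−1.41 ± 0.25, adjusted p = 0.00106), and the median was −0.19. Lin28b was the only call among 15 formative and primed genes. Signalling genes of the early embryo were called singly. Lefty2, a Nodal antagonist, had 230 and 302 in WT and 123 and 125 in Nrde2Δ200 (−1.09 ± 0.20, adjusted p = 0.00131), the only call among 18 genes of Nodal and Lefty signalling. Bmp4 had 7.999 and 12.3 in WT and 3.35 and 3.31 in Nrde2Δ200 (−1.51 ± 0.26, adjusted p = 7.38e-04), the only call among 16 BMP and Id genes. Nkx1-2 had 14.7 and 17.5 in WT and 8.84 and 5.74 in Nrde2Δ200, the only call among 15 Wnt targets and primitive streak genes. In Utf1, Lefty2 and Bmp4 the 2 WT libraries differed by more than the 2 Nrde2Δ200 libraries. The calls of Utf1 and Lefty2 were lost without WT replicate 2 or without either Nrde2Δ200 replicate (adjusted p up to 0.0313 and 0.0323). That of Bmp4 was lost without WT replicate 2 or Nrde2Δ200 replicate 2 (up to 0.0222), and that of Nkx1-2 without either WT replicate or Nrde2Δ200 replicate 2 (up to 0.0817).

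Of the lists of extraembryonic lineages, primitive endoderm had a median above 0 and trophectoderm had a median near 0. Over all genes 1.7% were called up, and 3.37% were higher at an adjusted p below 0.01. Of 17 primitive endoderm genes 2 were called up and none down, with a median of 0.67, and 6 were higher at an adjusted p below 0.01. Dab2, an endocytic adaptor, had 1.61 and 2.07 normalised CPM in WT and 5.20 and 4.13 in Nrde2Δ200 (1.23 ± 0.19, adjusted p = 3.58e-04). Srgn, the proteoglycan serglycin, had 3.84 and 3.48 in WT and 7.51 and 8.71 in Nrde2Δ200. The others at an adjusted p below 0.01 were Lrp2 and the basement membrane genes Col4a1, Col4a2 and Lamb1, at log2 fold changes between 0.71 and 0.89. Of the defining factors of this lineage, Gata4 had 8.38 and 8.59 in WT and 9.85 and 12.1 in Nrde2Δ200 (adjusted p = 0.129) and Gata6 had 0.850 and 0.846 in WT and 1.82 and 1.21 in Nrde2Δ200 (adjusted p = 0.212). Sox17 was at most 1.58, and Sox7 and Foxa2 were below the filter. The sum of the 7 primitive endoderm markers was 13.2 and 13.1 in WT and 18.9 and 20.4 in Nrde2Δ200. Of 25 genes of trophectoderm and simple epithelium 3 were called up and none down, with a median of 0.005. Of the 25, 12 were below 0, and 3 were higher and 1 lower at an adjusted p below 0.01. The sum of the 6 trophectoderm markers was 11.5 and 11.8 in WT and 12.1 and 12.3 in Nrde2Δ200. Anxa8, an annexin, had 4.28 and 4.80 in WT and 12.1 and 13.5 in Nrde2Δ200 (1.45 ± 0.21, adjusted p = 1.95e-04), Sox21 had 5.10 and 6.07 in WT and 11.9 and 15.1 in Nrde2Δ200, and Gata3 had 1.55 and 1.44 in WT and 3.30 and 3.36 in Nrde2Δ200. Srgn, Sox21 and Gata3 lost their call in each fit that left out a library, and Dab2 and Anxa8 in none.

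Of 9 neural genes 1 was called, down, with a median of −0.62, and 4 were lower at an adjusted p below 0.01. Map2, a microtubule-associated protein, had 1.29 and 1.10 normalised CPM in WT and 0.419 and 0.284 in Nrde2Δ200. Stmn2, a microtubule regulator of neurons, had 139 and 125 in WT and 83.0 and 66.0 in Nrde2Δ200 (−0.83 ± 0.17, adjusted p = 0.00280). Sox1, a defining neural factor, had 17.9 and 17.9 in WT and 18.2 and 17.6 in Nrde2Δ200. The call of Map2 was lost without WT replicate 1 or Nrde2Δ200 replicate 2 (adjusted p up to 0.0215). None of 9 fibroblast and feeder genes tested was called, with a median of 0.38. Col1a1 had the smallest p, with 0.645 and 0.597 in WT and 1.502 and 1.81 in Nrde2Δ200 (adjusted p = 0.0221).

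Metabolic and stress lists shifted by less than 2-fold. All 22 cholesterol biosynthesis genes were below 0, with a median of −0.41, and 8 were lower at an adjusted p below 0.01, but none was called. Cyp51, the lanosterol demethylase, had 174.3 and 155 normalised CPM in WT and 99.3 and 91.6 in Nrde2Δ200 (−0.79 ± 0.12, adjusted p = 3.08e-04). Lss, which makes lanosterol, had 97.0 and 88.4 in WT and 65.5 and 65.8 in Nrde2Δ200 (adjusted p = 8.33e-04). In the knockout with its own WT the median of this list was −1.16. The fall of Cyp51 was smaller in Nrde2Δ200 than there (adjusted p of the difference 0.00629). Of 29 genes of the ATF4 stress response 25 were below 0, with a median of −0.36, and none was called. Sars, a seryl-tRNA synthetase, had 260 and 256 in WT and 176 and 169 in Nrde2Δ200 (adjusted p = 7.79e-05), and Cars had 195 and 188 in WT and 131 and 136 in Nrde2Δ200. None of 21 heat shock and unfolded protein response genes was called (median −0.15). Xbp1, the factor that induces chaperones of the endoplasmic reticulum, had 63.9 and 63.5 in WT and 44.2 and 48.2 in Nrde2Δ200 (adjusted p = 0.00315).

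None of 30 genes of glycolysis and hypoxia was called (median 0.19), and Kdm3a, a histone demethylase induced by hypoxia, had 247 and 267 normalised CPM in WT and 330 and 370 in Nrde2Δ200 (adjusted p = 0.00552). Of 28 p53 targets 1 was called, Cd80, with 5.65 and 3.68 in WT and 10.4 and 13 in Nrde2Δ200 (adjusted p = 9.48e-04), and the median was 0.22. Of 18 YAP-responsive genes Ccn2 was called up and Axl, a receptor tyrosine kinase, down, with 2.72 and 2.81 in WT and 1.18 and 1.09 in Nrde2Δ200 (adjusted p = 0.00893), and the median was 0.14. None of 23 interferon and antiviral genes was called. Ifitm3 had 25.0 and 26.6 in WT and 46.6 and 51.1 in Nrde2Δ200 (adjusted p = 0.00185), and H2-K1, a class I antigen-presenting molecule, had 35.0 and 32.3 in WT and 23.3 and 20.9 in Nrde2Δ200 (adjusted p = 0.00200). The call of Axl was lost in each fit that left out a library, and that of Cd80 without WT replicate 2 or Nrde2Δ200 replicate 2.

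The machinery around NRDE2 was close to WT. None of 25 NRDE2 partners and nuclear exosome genes was called (median −0.16), and Exosc3, a cap subunit of the exosome, had 32.7 and 35.2 normalised CPM in WT and 24.1 and 23.3 in Nrde2Δ200 (−0.51 ± 0.10, adjusted p = 0.00226). None of 25 genes of the U1 snRNP, Sm proteins and U2AF was called (median −0.14). Prpf39, a U1-associated protein, had 46.9 and 40.6 in WT and 35.4 and 31.4 in Nrde2Δ200 (adjusted p = 0.171). None of 13 SR protein genes was called, and Srsf12 had 3.84 and 4.55 in WT and 6.65 and 7.001 in Nrde2Δ200 (adjusted p = 0.0272). Of 15 genes of the exon junction complex and nonsense-mediated decay, Magohb was called, with 8.91 and 11.0 in WT and 2.66 and 2.22 in Nrde2Δ200 (−1.92 ± 0.22, adjusted p = 2.17e-05). Magohb is a core subunit of the exon junction complex with a near-identical paralogue, Magoh, which had a log2 fold change of −0.36 (adjusted p = 0.0826). Reads shared by the copies are not counted. Of 12 genes of the TTI1-TTI2-TELO2 complex and its clients none was called, and Ruvbl2 had 242 and 259 in WT and 205 and 203 in Nrde2Δ200 (adjusted p = 0.120). None of 43 cyclins, kinases and inhibitors of the cell cycle (median −0.15) and none of 58 ribosomal protein genes (median −0.06) was called. Ccne2, a cyclin that activates CDK2, had 26.8 and 30.2 in WT and 17.9 and 14.4 in Nrde2Δ200 (adjusted p = 0.00248), and Rpl17 had 11.6 and 10.4 in WT and 8.22 and 7.29 in Nrde2Δ200 (adjusted p = 0.0186). In all, 14 of the 29 lists had no gene called by limma. Of their 339 genes tested, 117 had an unadjusted p below 0.05, beside 4227 of all 14144 genes, and edgeR and DESeq2 each called 1, Aldh1l2.

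**Figure D4:**
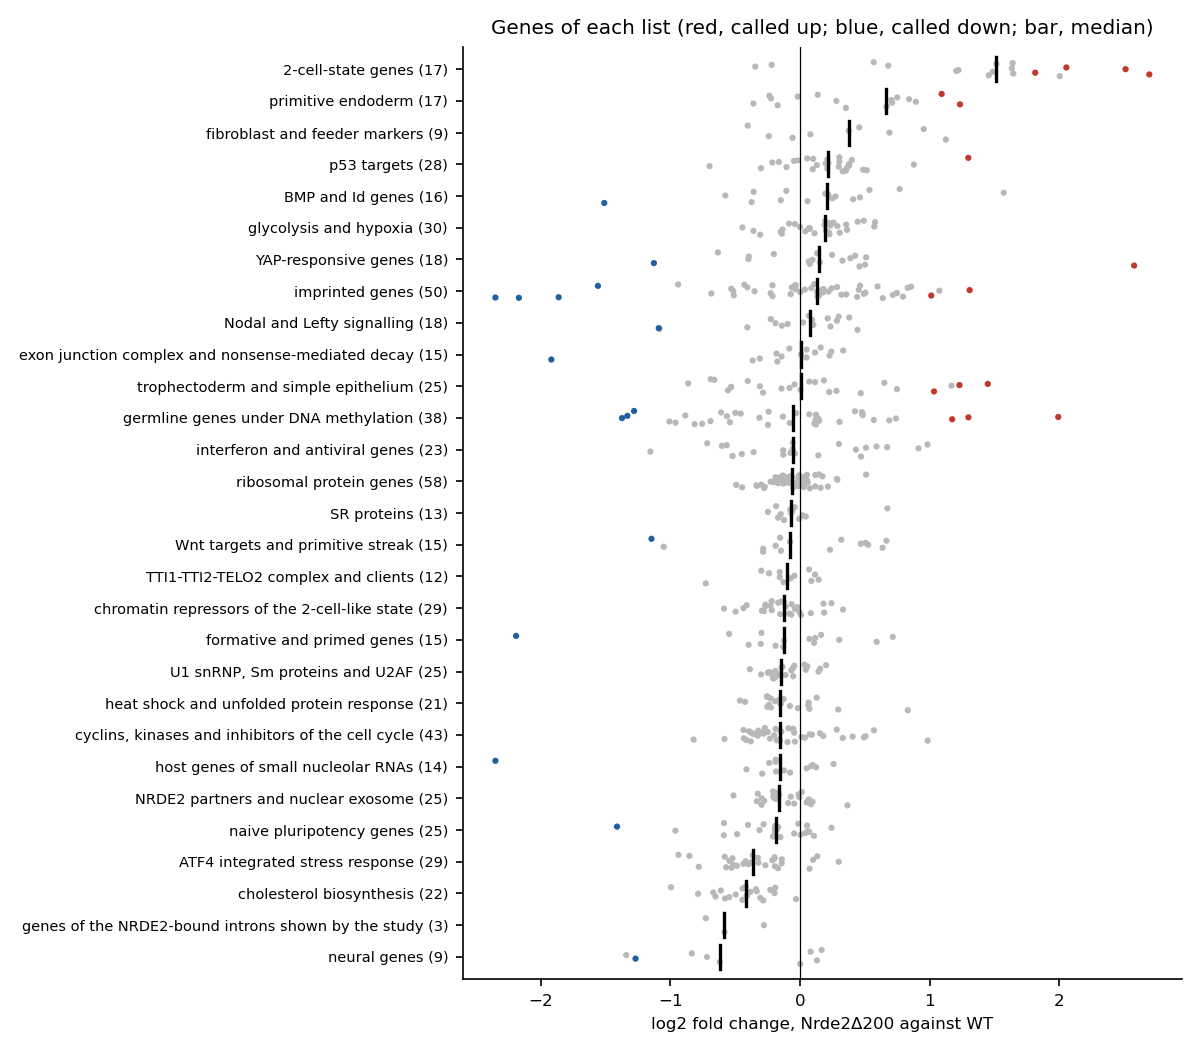
Log2 fold change in Nrde2Δ200 against WT (horizontal axis) of each tested gene of the 29 lists, with the number tested in brackets; red points are genes called up, blue points genes called down, grey points all others and black bars the medians. All 22 cholesterol biosynthesis genes lie left of 0, and 14 of the 29 lists have no called gene.

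By biotype, 217 of 12400 protein-coding genes were called up (1.75%) and 120 down (0.968%). Of 268 long intergenic noncoding RNAs, 10 were called up (3.73%) and 7 down (2.61%), with a median log2 fold change of 0.14 against −0.01 for protein-coding genes. The median of 333 unconfirmed transcripts of the TEC class was 0.15 and that of 171 antisense RNAs 0.09. In the 2 Nrde2Δ200 libraries the intergenic noncoding RNAs had medians of 0.09 and 0.14. The median for the TEC class was 0.21 and 0.12, beside 0.09 in one WT library against −0.09 in the other. These transcripts are weakly expressed, at WT medians of 0.811 to 1.53 normalised CPM for these 3 classes.

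The knockout with its own WT shares no library with the Nrde2Δ200 comparison, and shows how the same genes behaved when the whole protein was lost. In that experiment 260 of the 14144 genes were called up (1.84%) and 354 down (2.5%). Of the 241 genes called up in Nrde2Δ200, 222 (92.1%) were above 0 in the knockout, against 49.1% of all genes, and 81 (33.6%) were called up there. Of the 132 called down, 107 (81.1%) were below 0, against 50.9% of all genes, and 42 (31.8%) were called down. None was called in the opposite direction. Of the genes called in the knockout, 31.2% of those up and 11.9% of those down were called in the same direction in Nrde2Δ200. The genes called up had a median log2 fold change of 1.29 in Nrde2Δ200 and 0.79 in the knockout, and those called down −1.29 and −0.66. The first value of each is raised by the choice of genes on it. In the first Nrde2-KO, which shares the WT libraries, the medians were 0.92 and −0.82, and in Nrde2-D174R 0.46 and −0.34.

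Among the genes called in both was Trap1, a mitochondrial chaperone of the HSP90 family, with 224 and 219 normalised CPM in WT and 82.4 and 77.4 in Nrde2Δ200 (−1.47 ± 0.08, adjusted p = 1.48e-09). Its log2 fold change was −1.83 in the knockout with its own WT. Nphs1 had −2.01 in Nrde2Δ200 and −2.68 in the knockout, Bmp4 −1.51 and −1.74, Esrp1, a splicing regulator of epithelia, −1.69 and −1.59, and Tex14 −1.37 and −1.43. Among those that rose, Zscan4d had 2.69 and 3.83, 0610040J01Rik 2.69 and 2.81, Anxa8 1.45 and 2.69, and Peg10 1.31 and 1.55. None of the differences between the 2 experiments passed an adjusted p of 0.01 for these genes.

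For other genes the 2 experiments did differ. The test of the difference passed an adjusted p of 0.01 in 234 of 14144 genes (1.65%), in 13 of the 241 called up in Nrde2Δ200 (5.39%) and in 27 of the 132 called down. The change was larger in Nrde2Δ200 in all 13 and in 26 of the 27. The choice of genes by their change in Nrde2Δ200 favours this direction. Selenoi, at −2.30 in Nrde2Δ200, had 0.18 in the knockout (difference −2.48 ± 0.19, adjusted p = 8.94e-07), and Smoc1, at −2.47, had 0.003 (adjusted p = 9.47e-07). Obox6, at −2.08, had 0.76 in the knockout (adjusted p = 4.13e-05), and the intergenic RNA Gm32885, at −1.88, had 0.50 (adjusted p = 1.48e-05). These 4 genes fell in Nrde2Δ200 and not in the knockout. The 2 comparisons also differ in the time since the edit, in 4-hydroxytamoxifen and in the cell line. These differences cannot be told apart from that between truncation and loss. Rian, at −2.35, had −0.30 in the knockout (adjusted p = 0.00544) and Gldc, at −2.05, had −0.76 (adjusted p = 3.25e-04). Of the genes that rose, Ccn2 had 2.58 and 0.56 (adjusted p = 5.80e-05), Gm11427 3.82 and 1.49 (adjusted p = 7.88e-04), Tbx18 2.51 and 1.19 (adjusted p = 0.00509) and Hoxa11 1.78 and −0.17 (adjusted p = 0.00762). Sox11, a transcription factor of progenitor cells, rose from 8.44 and 8.21 normalised CPM in WT to 28.5 and 22.7 in Nrde2Δ200 (1.58), and had −0.95 in the knockout (adjusted p of the difference 7.88e-04).

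**Figure D5:**
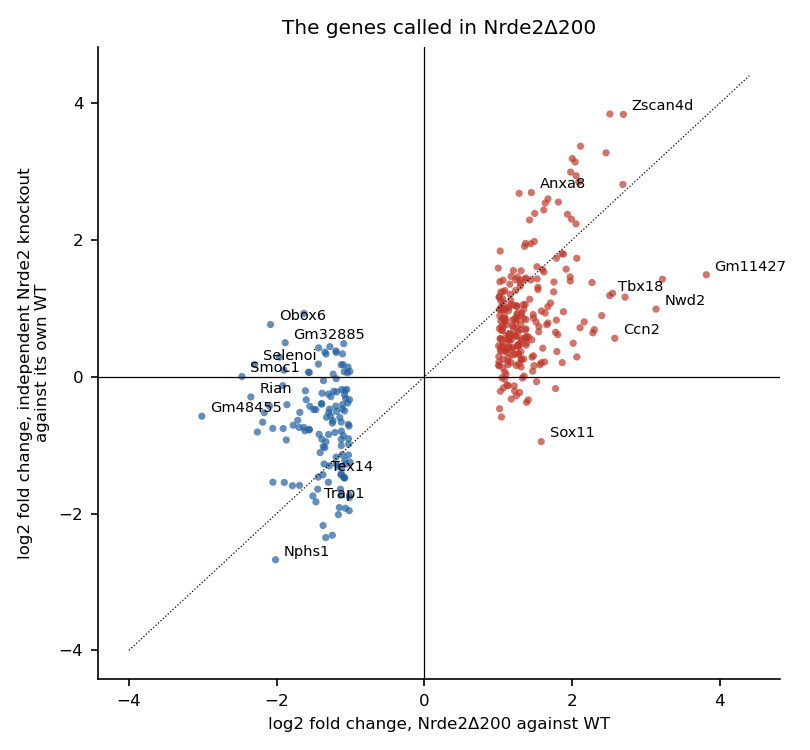
Log2 fold change of the 373 genes called in Nrde2Δ200, in Nrde2Δ200 against WT (horizontal axis) and in the Nrde2-KO with its own WT (vertical axis); red points were called up and blue points down in Nrde2Δ200, and the dotted line marks equal change. Most points share a sign in both experiments, while Selenoi, Smoc1 and Obox6 lie near or above 0 on the vertical axis and Sox11 below it.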

How the data were processed

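RNA was extracted from ES cells, rRNA-depleted, made into stranded total RNA libraries and sequenced as single-end reads. Per the methods, alignment was with STAR 2.7.3a to mm10. The authors counted uniquely mapping reads on the correct strand per GENCODE M23 gene with featureCounts and deposited CPM. All values were within 0.1 of a whole multiple of the value of 1 read (100% of values), so reads were recovered. Genes were named with GENCODE M21 of GRCm38 (55154 of 55335 matched). The CPM of each of the 20 libraries without cycloheximide were divided by their median-of-ratios factor (normalised CPM), 0.25 was added and log2 taken. limma 3.58.1 (R 4.3.3) was fitted with a mean-variance trend, with all groups sharing 1 estimate of the spread, for the 14670 genes that averaged 0.5 CPM or more over the 4 libraries. Fold changes are on this log2(CPM + 0.25) scale, which understates those of low genes. Called means a Benjamini-Hochberg adjusted p, over all 14670 genes, below 0.01 together with a change beyond 1 on the log2 scale in either direction. edgeR 4.0.16 and DESeq2 1.42.0 on the recovered reads, with at least 200 reads over the libraries for DESeq2, were alternatives. The fit was tested on simulated data. The test of the difference between Nrde2Δ200 and the knockout was added after the data were seen.

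Members and lists were chosen with earlier results of these data known. Named are Nrde2, the 3 genes whose introns the study shows, and, among called genes of at least 1 normalised CPM in the higher group with separate values, the 10 protein-coding genes and the 3 of other biotypes with the largest change in each direction. Named too are called members of each list, or otherwise 1 or 2 with the smallest p, with further members of a list at an adjusted p below 0.01. The other genes named (Hox genes, neighbours of Rian, lineage factors, and genes set beside the knockout such as Trap1, Esrp1, Sox11 and Gm32885) were chosen after their values were seen. Guides and donor were read from the table of cell lines of the study. Each 5′SS was read from GRCm38 for the GENCODE M21 basic transcripts. Columns with cycloheximide (8) and the Ribo-seq table were not used. Some items that these rules name are not reported here.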

Additional observations from a re-analysis of the deposited data

How the results depend on the processing

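The 373 calls (241 up, 132 down) numbered 193 (112 up, 81 down) at a pseudocount of 1 CPM and 228 (132 up, 96 down) with no filter on low values. Leaving out each library gave between 123 and 271 calls, between 55 and 160 up and between 68 and 111 down. The other settings gave between 327 and 486 calls: a pseudocount of 0.1 CPM, a mean of at least 1 CPM, a mean of at least 0.5 CPM over the 20 libraries, CPM as deposited, only the 4 libraries, the replicate block, edgeR and DESeq2. Without the genes of chromosome 6, chosen after seeing the data, 337 calls were left. A replicate block gave 475 calls. The deviations of same-numbered libraries correlated with −0.04 between Nrde2Δ200 and WT, and with 0.27 and 0.25 between these WT libraries and the first Nrde2-KO and Nrde2-D174R. No label says that the numbers pair samples, and for Nrde2Δ200 and WT the values do not show it. With CPM as deposited the median over all genes was 0.04, and 70.8% of the calls were up against 64.6%. The log2 fold change of Nrde2 missed the call in all 14 alternatives. Of 51 named called genes 25 kept their call in every alternative in which they were fitted and 26 lost it in at least 1, of which 25 in a fit that left out a library. No named gene changed direction. The cause of these differences was not tested. Depth limits the weakest genes, which rest on few reads in WT.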
